A study of Mus musculus with 99 samples.

Results

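The genes studied here encode 7 subunits of the voltage-gated sodium channel that are found in the brain, of 55335 gene identifiers counted in each library. Scn1a, Scn2a, Scn3a and Scn8a encode alpha subunits. Scn2b, Scn3b and Scn4b encode beta subunits. The members were found by Ensembl identifier through GENCODE M21 symbols, and the rule uses no expression value. All 7 passed the filter on low counts in every region, and the lowest count of a member in a kept library was 415 (Scn3b in a VBT library).

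An alpha subunit is a single large protein that folds into the sodium-selective pore and carries its voltage sensors, and its opening starts the action potential. Beta subunits are small membrane proteins with an extracellular immunoglobulin domain. They adjust gating, bring channels to the membrane and take part in cell adhesion. Scn1a is known as the main alpha subunit of fast-spiking interneurons, Scn2a of excitatory axons, Scn8a of mature axon initial segments and nodes of Ranvier, and Scn3a as the alpha subunit that is prominent before birth. Scn4b is known for its part in resurgent sodium current and for high expression in the striatum.

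The libraries were 99 bulk RNA-seq libraries of tissue punches from juvenile wildtype C57BL/6 mice. The dams of the fentanyl groups drank fentanyl at 10 µg/ml in water from embryonic day 0 until weaning, and those of the control groups drank water. Punches were taken in females and males from 2 reward-related midbrain and forebrain sites, VTA (ventral tegmental area) and NAc (nucleus accumbens), from the sensory thalamus (VBT, ventrobasal) and its cortical target S1 (somatosensory cortex), and from PrL, the prelimbic part of the cortex, in 19 groups of 5 libraries and 1 group of 4 (S1, male, water). The labels name no litter or animal, so p-values measure only the spread between these libraries, and libraries of different regions may come from the same animals.

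One library, VTA male water 3, had counts for 6333 genes and was left out. The other 98 had counts for 24079 to 27347 genes and totals of 23032078 to 52069639 counts. Markers of each labelled region were present there, with no defining marker at 0. The lowest levels were those of Pitx3 (0.321 CPM, counts per 1000000 counts of the library) and Foxa2 (0.481 CPM) in VTA. A further 5 libraries stood apart. VBT female water 2 held choroid plexus markers at 4400.1 CPM in sum, VBT female fentanyl 1 held Y-linked reads, and PrL female water 5, male water 3 and male water 4 held olfactory bulb markers at 171.5, 324.0 and 31.0 CPM. Without these 5 libraries, 0 of 7 members passed for fentanyl against water in VBT and in PrL, as with them. The setting leaves VTA, S1 and NAc as they were. Other libraries with markers of other tissue were kept in it, among them VTA male water 2 and VBT male fentanyl 5 (choroid plexus markers at 1003.9 and 631.8 CPM) and VBT male water 3 (striatal markers at 713.7 CPM). The NAc libraries held cortical markers, at 245.85 to 1365.7 CPM in water females and 358.32 to 696.85 CPM in water males. In S1 water females these ran from 1229.6 to 1469.8 CPM. NAc female water 1 held 1365.7 CPM of cortical and 1096.4 CPM of striatal markers. The part of this tissue in the differences between regions was not tested.

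On GRCm38, the 3 alpha subunit genes Scn3a (ENSMUSG00000057182, chr2:65457118-65567627, minus strand), Scn2a (ENSMUSG00000075318, chr2:65620771-65767447, plus strand) and Scn1a (ENSMUSG00000064329, chr2:66270778-66440840, minus strand) lie in 1 stretch of chromosome 2. Scn8a (ENSMUSG00000023033) lies at chr15:100869858-101045938 on the plus strand. All beta members lie on the plus strand of chromosome 9: Scn3b (ENSMUSG00000049281) at chr9:40269217-40291618, Scn2b (ENSMUSG00000070304) at chr9:45117782-45130070 and Scn4b (ENSMUSG00000046480) at chr9:45138395-45154152, which starts 8324 bases after the end of Scn2b. Annotated exons of the alpha genes cover 11146 (Scn1a), 12732 (Scn2a), 12459 (Scn3a) and 15766 (Scn8a) bases, and those of the beta genes 4656 (Scn2b), 5461 (Scn3b) and 4982 (Scn4b) bases. None shares an exon base with another annotated gene, so no read of a member could be split with an overlapping neighbour.

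RefSeq promoter windows on GRCm38.p6 were found for Scn1a, Scn2a, Scn8a, Scn2b and Scn4b. The sequences shown are those of Scn2b, the member that passed the test for fentanyl, and of Scn1a and Scn8a, whose levels rose and fell together between libraries in 4 of the 5 regions. Each is the part of the 250 bases upstream of the start that lies outside annotated exons: chr9:45117626-45117781 (plus strand, 156 bases) for Scn2b, chr2:66440841-66440879 (minus strand, 39 bases) for Scn1a and chr15:100870395-100870644 (plus strand, 250 bases) for Scn8a. Capitals would mark a match to a searched motif, and these stretches hold none.
Scn2b: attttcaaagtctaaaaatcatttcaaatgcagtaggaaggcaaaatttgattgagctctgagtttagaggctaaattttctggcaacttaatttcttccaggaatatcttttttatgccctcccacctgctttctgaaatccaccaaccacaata
Scn1a: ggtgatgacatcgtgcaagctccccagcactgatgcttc
Scn8a: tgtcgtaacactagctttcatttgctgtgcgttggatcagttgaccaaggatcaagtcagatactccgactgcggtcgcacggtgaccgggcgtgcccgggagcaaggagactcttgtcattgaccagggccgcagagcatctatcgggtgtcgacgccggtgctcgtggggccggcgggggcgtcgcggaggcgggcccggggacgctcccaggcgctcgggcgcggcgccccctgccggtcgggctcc
Over the whole 250 bases, the Scn8a window shown had a GC content of 68% with 30 CpG dinucleotides and a second Scn8a window 53.2% with 9, the Scn2b window 38.4% with 1 and the Scn1a window 46.8% with 4, against a median GC content of 52.4% over 32851 windows. The motifs searched on both strands were the GC box GGGCGG (in 32.7% of all windows), the TATA box TATAAA (12.4%), the CCAAT box CCAAT (33.8%), the cyclic AMP response element TGACGTCA (1.55%) and the E-box CAGCTG (13%). The Scn1a and Scn4b windows each had 1 CCAAT match, a second Scn2a window had 1 TATAAA match, and the others had none of these letters.

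The regions differed most in Scn4b and Scn3b and least in Scn2b. Means in water-exposed libraries differed between the highest and the lowest region by 19.2-fold for Scn4b, 9.39-fold for Scn3b, 3.93-fold for Scn2a, 3.73-fold for Scn1a, 3.37-fold for Scn3a, 2.06-fold for Scn8a and 1.42-fold for Scn2b. VBT was the region with the most Scn1a and the least Scn2a, Scn3a and Scn3b. Each of the 70 member differences between 2 regions was tested in water libraries with edgeR's quasi-likelihood test, adjusted over all genes and all 10 pairs of regions. Of these, 58 passed at an adjusted p under 0.05, where 61.7% of all gene differences passed (VTA against VBT 55.3%, S1 68.6%, PrL 67.6% and NAc 65.9%, VBT against S1 69.2%, PrL 69.4% and NAc 69.3%, S1 against PrL 43.0% and NAc 55.8%, and PrL against NAc 53.3%). The punches are bulk tissue, in which fewer cells of a type and less RNA per cell cannot be told apart. The NAc punches also held cortical markers, as given above.

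**Figure D1:**
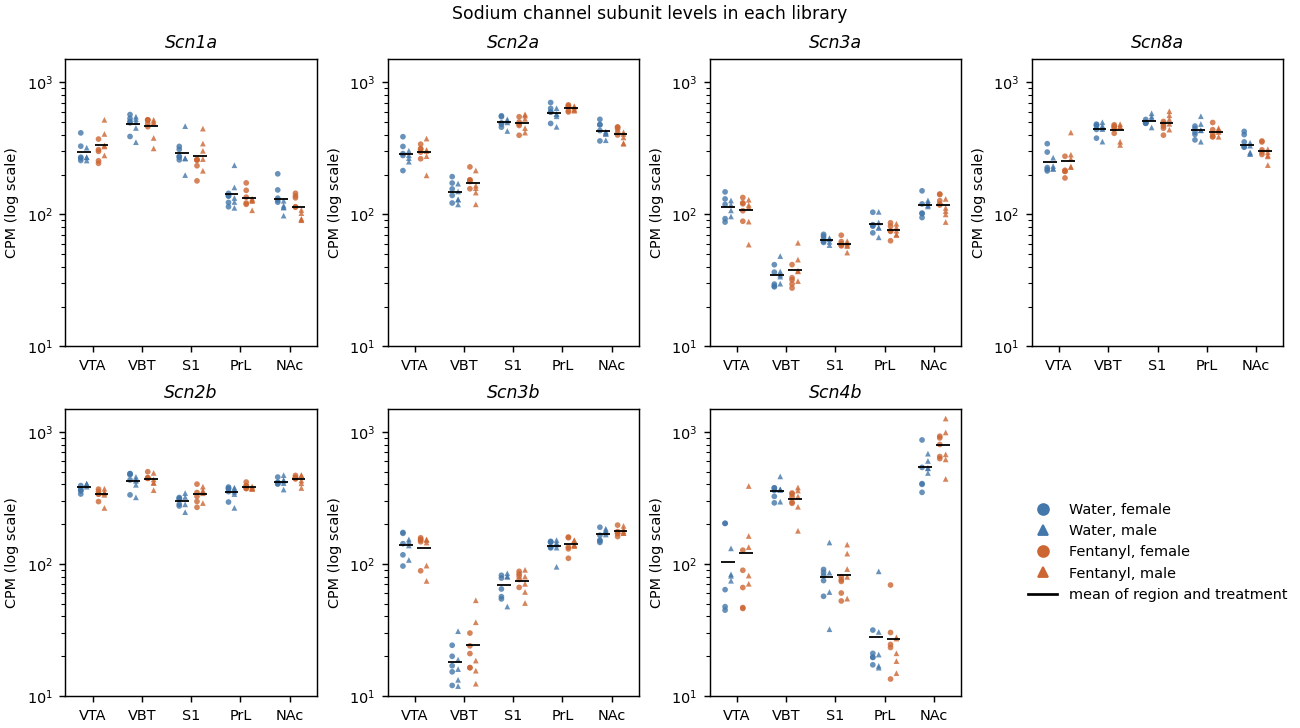
Level (CPM, log scale) of each member in each of the 98 libraries, by region, with circles for females, triangles for males, blue for water, orange for fentanyl, and bars for the mean of a region and treatment. Scn4b was spread from 13.4 CPM in a PrL library to 1263 CPM in a NAc library, while Scn2b stayed between 246.7 and 499.4 CPM in all of them.

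Scn1a was highest in VBT. Its level in water libraries ran from 352.1 to 570.1 CPM in VBT (median 503.8) and from 255.8 to 414.1 in VTA (270.8), while S1 ran from 198.4 to 465.7 (271.3), PrL from 112 to 235.5 (135.2) and NAc from 97.8 to 202.7 (125.2). The VBT libraries overlapped the upper end of VTA and S1 but lay above every PrL and NAc library. The log2 difference was 2.04 (SE 0.14) between VBT and NAc and 0.79 (SE 0.14) between VBT and S1, with adjusted p = 3.70e-17 and 4.05e-06 by edgeR's quasi-likelihood test. The differences between VTA and S1 (-0.08, SE 0.14) and between PrL and NAc (0.21, SE 0.14) did not pass.

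Scn2a had nearly the reverse order, with the cortical regions highest and VBT lowest. Water libraries held 460.2 to 703 CPM in PrL (median 585.1), 428.1 to 558.2 in S1 (497.1), 359.8 to 524.5 in NAc (419.1), 214.4 to 387.3 in VTA (280.7) and 118.8 to 193.1 in VBT (144.1). No VBT library reached the lowest VTA library, and no VTA library the lowest S1 or PrL library. All 10 differences between regions passed, from VBT against PrL (-1.93, SE 0.09, adjusted p = 6.16e-24 by edgeR's quasi-likelihood test) to S1 against PrL (-0.24, SE 0.09, adjusted p = 0.0191).

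Scn3a was the alpha member with the lowest level per kilobase of exon in each region. It ran from 94.5 to 150.7 CPM in NAc (median 118.5), 87.4 to 147.9 in VTA (118.4), 67 to 104.4 in PrL (81.8), 58.5 to 70.6 in S1 (64.9) and 28.3 to 48.3 in VBT (34.3). The VBT libraries lay below all others. VBT was lower than NAc by a log2 difference of -1.62 (SE 0.08, adjusted p = 3.28e-22, edgeR's quasi-likelihood test), and of the 10 differences the 1 between VTA and NAc (-0.05, SE 0.08) did not pass.

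Scn8a was lowest in VTA and varied less between regions than the other alpha members. It ran from 213.2 to 343 CPM in VTA (median 226.2), 287 to 425.1 in NAc (328.3), 354.9 to 553.8 in PrL (433.3), 355.6 to 498.6 in VBT (459.7) and 455.1 to 582.9 in S1 (499.4). No VTA library reached the lowest PrL, VBT or S1 library. VTA was lower than S1 by a log2 difference of -1.13 (SE 0.10, adjusted p = 5.75e-14, edgeR's quasi-likelihood test). Neither VBT against S1 (-0.15, SE 0.10) nor VBT against PrL (0.07, SE 0.09) passed.

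Among the beta members, Scn2b had close levels everywhere: 319.4 to 483.4 CPM in VBT (median 433.6), 365.8 to 470.6 in NAc (414.6), 338.5 to 405.9 in VTA (384.7), 265.8 to 382.4 in PrL (362.1) and 246.7 to 344.1 in S1 (309.2). NAc against S1 was the 1 pair of regions without overlap, with the lowest NAc library above the highest S1 library. VBT was higher than S1 by 0.56 on the log2 scale (SE 0.08, adjusted p = 2.42e-08, edgeR's quasi-likelihood test). VTA did not differ past the threshold from PrL (0.03, SE 0.08) or NAc (-0.15, SE 0.08), nor VBT from NAc (0.15, SE 0.08). Without the libraries that stood apart (chosen after seeing the data), VTA passed against NAc (-0.19, adjusted p = 0.00512, edgeR), VBT passed against NAc (0.18, adjusted p = 0.00802) and PrL against NAc no longer did (-0.09, adjusted p = 0.253, from -0.18).

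Scn3b was lowest in VBT, with 11.9 to 30.9 CPM (median 16.5). Other water libraries held 47.6 to 84.9 CPM in S1 (78.1), 95.1 to 151.6 in PrL (142.5), 96.4 to 173.1 in VTA (142.3) and 145.5 to 189.6 in NAc (170.1). Neither VBT nor S1 overlapped any other region. The log2 difference between VBT and NAc was -3.10 (SE 0.13, adjusted p = 5.45e-25, edgeR's quasi-likelihood test), while VTA against PrL (-0.08, SE 0.12) and PrL against NAc (-0.21, SE 0.12) did not pass.

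Scn4b was high in NAc and VBT and low in the cortical regions. Water libraries ran from 348.4 to 868.8 CPM in NAc (median 531.2), 290.2 to 460.1 in VBT (364.6), 44.7 to 203 in VTA (81.2), 32 to 145.4 in S1 (81.6) and 16.4 to 87.8 in PrL (20.1). All NAc and VBT libraries lay above all VTA, S1 and PrL libraries. PrL was below NAc by a log2 difference of -4.17 (SE 0.31, adjusted p = 1.23e-15, edgeR's quasi-likelihood test), while VBT against NAc (-0.45, SE 0.27) and VTA against S1 (0.32, SE 0.29) did not pass. The coefficient of variation of Scn4b between libraries was 77.0% in PrL, 59.6% in VTA, 39.0% in S1, 28.3% in NAc and 13.4% in VBT. The PrL value rests on male water 5 (87.8 CPM) and was 26.4% without it.

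On a scale that allows genes to be compared, CPM per kilobase of exon, each region had its own mix of subunits. Scn1a made up 50.4% ± 2.06 (SD, n = 10) of the alpha sum in VBT, and Scn2a 49.2% ± 3.96 (n = 10) in PrL, 44.2% ± 1.74 (n = 10) in NAc and 38.2% ± 2.83 (n = 9) in S1. In VTA, Scn1a (35.6% ± 4.08, n = 9) and Scn2a (30.7% ± 4.62, n = 9) were close. Scn8a held between 21.3% (VTA) and 32.8% (VBT) of the sum and Scn3a between 3.33% (VBT) and 12.5% (VTA and NAc). Among the 3 beta members, Scn2b led in PrL (70.7% ± 3.44, n = 10), S1 (69.2% ± 1.97, n = 9), VTA (64.0% ± 5.03, n = 9) and VBT (54.7% ± 6.36, n = 10), and Scn4b in NAc (46.5% ± 5.68, n = 10). Scn4b also held 43.3% ± 5.92 of the beta sum in VBT, where Scn3b held 1.99% ± 0.704 (n = 10 for both). The summed alpha level in water libraries ran from 74.1 (VTA) to 103.3 (S1) CPM per kilobase, and the summed beta level from 93.0 (S1) to 229.4 (NAc). These shares and sums are over the 7 members alone.

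**Figure D2:**
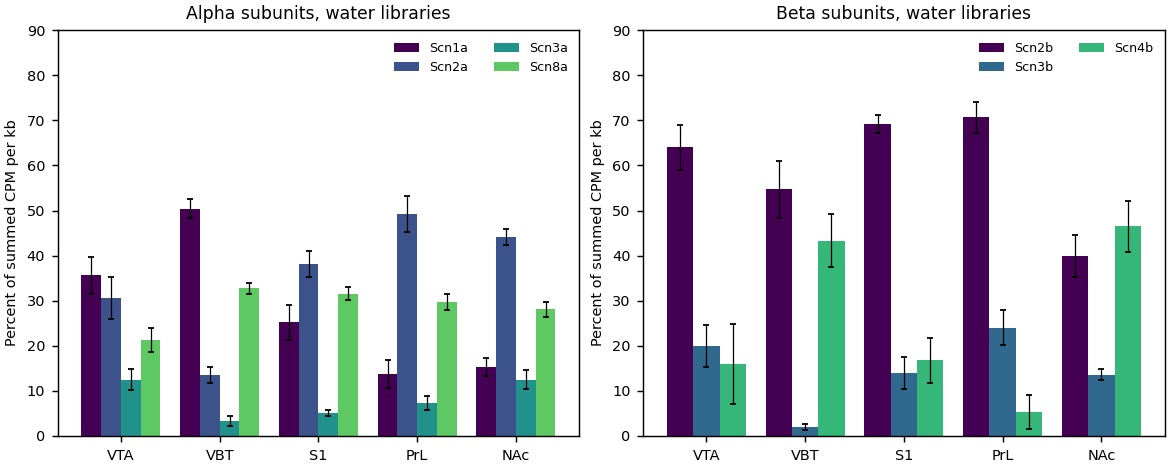
Share of each member in the summed CPM per kilobase of exon of the 4 alpha subunits (left) and the 3 beta subunits (right) in water libraries, as mean and SD in percent. Scn1a led the alpha subunits in VBT (50.4%) and VTA (35.6%) and Scn2a in the other regions, and Scn4b exceeded Scn2b in NAc (46.5% against 39.9%).

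The effect of perinatal fentanyl was tested within each region, in females, in males, on average over the sexes and as the difference between the sexes. Of the 7 members, 1 passed in any of these comparisons: Scn2b, lower in VTA. In VTA, 22.0% of all genes tested passed in males (11.0% lower), 23.1% on average (12% lower), 0.0% in females and 0.0% for the difference between the sexes. With Scn2b as the 1 member called in males and on average, 1 of 7 is not above the share of all genes. Their median log2 fold change in VTA males was 0.12, ranging from -0.23 to 0.91, against a median of 0.0017 over all genes.

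Scn2b in VTA males stood at 348.6, 344.6, 333.9, 265.5 and 371.0 CPM after fentanyl (replicates 1 to 5) and at 403.4, 384.7, 405.9 and 401.1 CPM after water (replicates 1, 2, 4 and 5). Every fentanyl library lay below every water library. Of the 70 combinations of a member, a region and a sex, this was the 1 without overlap, while the share of all genes without overlap was 22.4% in VTA males and 1.61% in VTA females. That share was 2.06% and 0.967% in VBT, 4.22% and 1.72% in S1, 2.18% and 2.0% in PrL and 0.755% and 3.5% in NAc females and males. In VTA females, Scn2b stood at 368.7, 353.2, 296.7, 337.8 and 338.0 CPM after fentanyl and at 338.5, 371.1, 360.4, 392.1 and 358.2 CPM after water, and these overlapped. The log2 fold change was -0.23 (SE 0.07, 95% confidence interval -0.38 to -0.07) in males, -0.12 (SE 0.07) in females and -0.17 (SE 0.05) on average, with adjusted p = 0.0334, 0.483 and 0.0190 by edgeR's quasi-likelihood test. The difference between the sexes (-0.11, SE 0.10) had an adjusted p of 0.680 by the same test.

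Base composition and the cell and tissue markers of the punch moved with this result. The rank correlation, across genes, of a library's deviation from the VTA mean with exon GC content was between -0.48 and -0.10 in VTA males exposed to fentanyl and between 0.51 and 0.64 in those exposed to water. Exon GC content of Scn2b is 50.5%. With offsets for GC content, the change in Scn2b was -0.19 in males and -0.14 on average, with adjusted p = 0.137 and 0.0944 by edgeR's quasi-likelihood test. The 6 VTA marker genes summed to between 334.8 and 1240 CPM in males after fentanyl and between 864.2 and 1499 after water, and 6 of 6 had the lower mean after fentanyl. With their score as a covariate, chosen after seeing the data, the change was -0.18 in males and -0.15 on average, with adjusted p = 0.143 and 0.0690 by the same test. Neuron markers summed to between 4931 and 5114 CPM in males after fentanyl and between 4397 and 4548 after water (4 of 6 with the higher mean after fentanyl). Blood markers ran from 82.6 to 489.6 and from 74.0 to 247.9 CPM (5 of 5 higher), and choroid plexus markers from 8.96 to 22.1 and from 6.17 to 1003.9 CPM (0 of 4 higher). Striatal markers ran from 65.9 to 114.4 CPM after fentanyl and from 106.0 to 126.2 after water (1 of 6 higher), endothelial markers from 192.5 to 229.5 and from 213.2 to 246.6 (1 of 4), and cortical markers from 10.7 to 66.1 and from 8.13 to 14.6 (3 of 4). The part of these 6 lists in the result was not tested. The call in males was also lost without any 1 of the 4 water libraries (-0.23 to -0.22, adjusted p between 0.0576 and 0.0806, edgeR). Without male water 2, the library with the choroid plexus markers, the change was -0.23 (adjusted p = 0.0576, edgeR), as large as with it. The call was lost too without male fentanyl 3 (-0.23, 0.0564) or 4 (-0.17, 0.0638). With the replicate number as a block (-0.21, 0.0595) and with no filter on low counts (-0.23, 0.0516) it was also lost. The sparse library also bears on the call, which was lost in males (adjusted p = 0.523, edgeR) and on average (0.439) when it was kept.

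The other members in VTA did not pass. Scn1a in males stood at 406.4, 279.3, 332.7, 519.9 and 326.5 CPM after fentanyl and 270.9, 319.8, 255.8 and 270.6 after water, and the 2 groups overlapped. Its log2 fold change was 0.46 (SE 0.19), with adjusted p = 0.0951 by edgeR's quasi-likelihood test, 0.0335 by DESeq2's Wald test and 0.0426 with an oligodendrocyte marker score as a covariate, which called 25.7% and 26% of all genes. It was 0.29 with offsets for GC content (adjusted p = 0.439, edgeR), 0.17 with the VTA marker score as a covariate (0.469) and 0.30 without male fentanyl 4 (0.251). Without male fentanyl 2 it was 0.56 and passed (adjusted p = 0.0397, edgeR). Scn4b gave 0.91 (SE 0.60) in males and -0.62 (SE 0.56) in females. Within each group of libraries its levels were spread widely: male fentanyl libraries held 162.8, 81.7, 134.1, 389.2 and 70.7 CPM.

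**Figure D3:**
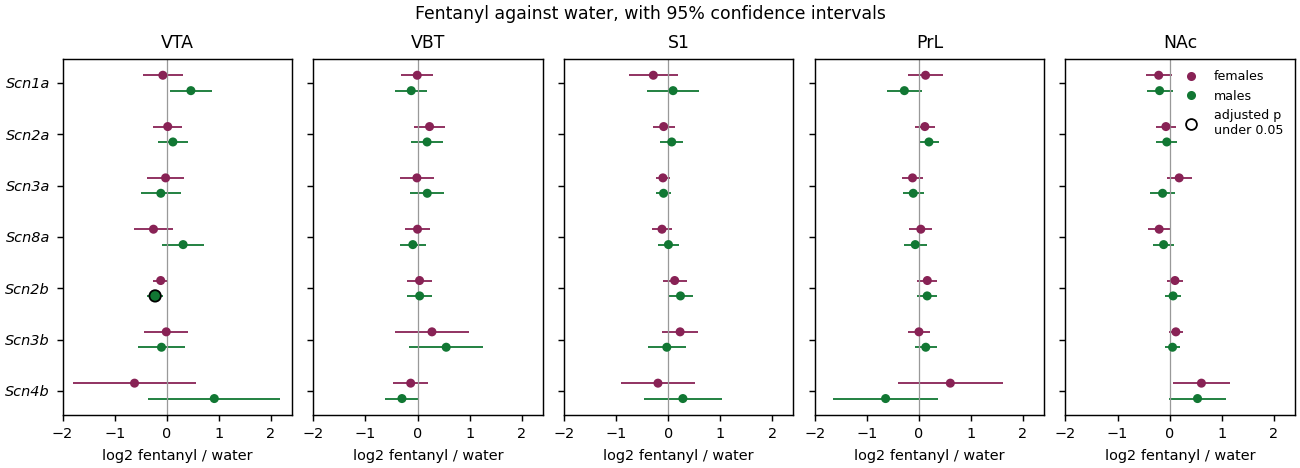
Log2 fold change of fentanyl against water with its 95% confidence interval for each member in each region, in females (purple) and males (green), from edgeR. The black ring marks Scn2b in VTA males, at -0.23, the 1 comparison within a sex with an adjusted p under 0.05, and the widest intervals are those of Scn4b in VTA and PrL.

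In NAc, the largest estimate was that of Scn4b. Female libraries held 928.1, 901.1, 803.4, 627.8 and 650.7 CPM after fentanyl and 348.4, 538.5, 868.8, 400.9 and 405.8 after water. Male libraries held 675.7, 990.4, 618.9, 1263 and 440.6 CPM after fentanyl and 529.7, 488.5, 532.7, 602.7 and 684.2 after water. The groups overlapped in both sexes: 1 female water library lay among the fentanyl libraries, and 1 male fentanyl library lay below all male water libraries. The log2 fold change was 0.61 (SE 0.26) in females, 0.54 (SE 0.26) in males and 0.57 (SE 0.18) on average, with adjusted p = 0.544, 0.296 and 0.289 by edgeR's quasi-likelihood test. By limma-voom with sample weights the average was 0.61 (adjusted p = 0.0463), and with a covariate for the share of reads outside exons it was 0.68 (adjusted p = 0.0251, edgeR). These settings called 1.13% and 2.02% of all genes on average. By edgeR without the covariate, 0.0% of all genes passed in females, 0.662% in males, 0.0% on average and 0.0% for the difference between the sexes, and 0 of 7 members did in each.

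Scn4b in NAc followed the striatal markers of the punch. The 6 striatal marker genes summed to between 2198 and 3250 CPM in females after fentanyl and between 1096 and 3014 after water, and to between 1645 and 3798 and between 1689 and 2616 in males. In both sexes 6 of 6 had the higher mean after fentanyl. In females 0 of 4 cortical markers had the higher mean after fentanyl (mean sums of 452.0 and 941.9 CPM after fentanyl and water), and 0 of 6 neuron markers (4652 and 5560 CPM). In males these counts were 2 of 4 (463.8 and 498.0 CPM) and 2 of 6 (4471 and 4664 CPM). Over the 20 NAc libraries, log2 Scn4b and the striatal score had a Pearson r of 0.97 and a Spearman rho of 0.96. The permutation p was 1e-05 for each, the smallest that 100000 resamples can give, and 0.000175 after adjustment over the 35 relations of a member to its region's markers. The r was 0.97 in water and 0.98 in fentanyl libraries, 0.99 in females and 0.96 in males, and 0.97 without the 2 libraries farthest from the median. Scn2b (r = 0.75, rho = 0.78), Scn3a (0.61 and 0.61) and Scn3b (0.61 and 0.54) also rose with the striatal score (n = 20). Their adjusted permutation p lay between 0.000744 and 0.0498, and the r of Scn3b was 0.34 without the 2 farthest libraries. As a percent of the striatal marker sum, Scn4b was 29.0 ± 1.46 in fentanyl females, 28.9 ± 2.12 in water females, 28.8 ± 2.92 in fentanyl males and 26.4 ± 1.49 in water males (SD, n = 5 each). With the striatal score as a covariate, chosen after seeing the data, the average log2 fold change was 0.10 (SE 0.07, adjusted p = 0.684, edgeR). By this fit it was -0.005 (SE 0.09, adjusted p = 0.994) in females and 0.21 (SE 0.08, adjusted p = 0.135) in males. With the cortical score the average was 0.36 (adjusted p = 0.412, edgeR).

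**Figure D4:**
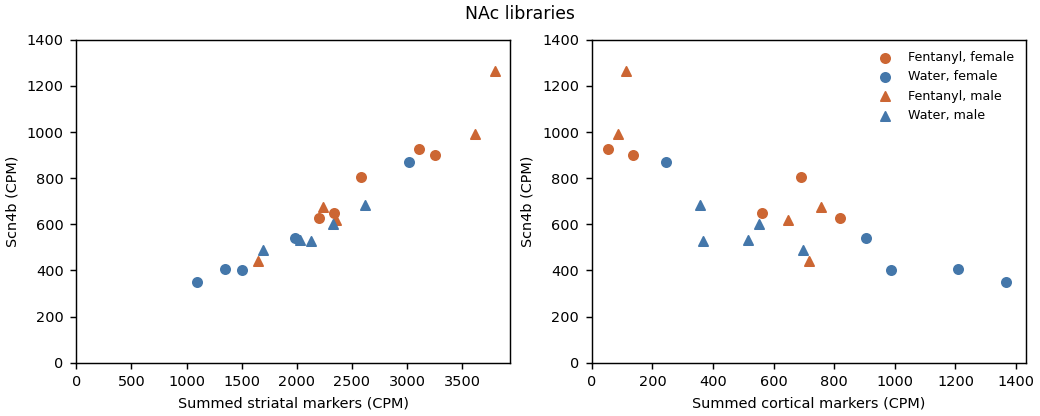
Scn4b level (CPM) in each of the 20 NAc libraries against the summed CPM of 6 striatal markers (left) and of 4 cortical markers (right), by sex and treatment. Scn4b rises with the striatal sum (r = 0.97 of log2 Scn4b with the striatal score over the 20 libraries), and the 3 libraries with the smallest striatal sum are water females.

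Elsewhere the members did not pass. In VBT, 0 of 7 members and 0.0% of all genes passed in females, in males, on average and for the difference between the sexes. In S1, 0 of 7 members passed, against 0.142% of all genes in females, 0.0% in males, 1.03% on average and 0.0% for the difference. In PrL, 0 of 7 passed, against 0.021% in females, 0.0% in males, 0.697% on average and 0.0% for the difference. At an unadjusted p under 0.05 on average over the sexes, the number of members was 3 in NAc (12% of all genes), 2 in PrL (19.1%), 1 in S1 (15.8%) and 0 in VBT (8.49%). In VBT, S1 and PrL, DESeq2's Wald test and limma-voom also called 0 of 7 members, where they called 0.0% to 4.08% and 0.0% to 1.62% of all genes.

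The members with the smallest p there were as follows. Scn2b in S1 had an average log2 fold change of 0.18 (SE 0.08, adjusted p = 0.277, edgeR), which became 0.23 (adjusted p = 0.045) with an oligodendrocyte marker score as a covariate, where 2.56% of all genes passed. In S1 the markers in that score themselves had the higher mean after fentanyl, 6 of 6 in each sex, with mean sums of 5728 and 4103 CPM after fentanyl and water in females and of 4371 and 3451 CPM in males. Scn2a in PrL gave 0.15 (SE 0.07, adjusted p = 0.207, edgeR) and 0.17 (adjusted p = 0.047) with that covariate, where 3.27% of all genes passed, and Scn2b in PrL gave 0.16 (SE 0.06, adjusted p = 0.189). In PrL 6 of 6 oligodendrocyte markers had the higher mean after fentanyl in females (1619 and 1310 CPM) and 0 of 6 in males (1035 and 1498 CPM). In S1 and in PrL 4 of 4 cortical markers had the higher mean after fentanyl in each sex. Of 6 astrocyte markers, 1 did in S1 females and 0 did in S1 males and in PrL. Scn2b rose with the cortical score in S1 (r = 0.70, rho = 0.55, n = 19) and PrL (0.90 and 0.53, n = 20). The adjusted permutation p was 0.00328 and 0.0498 in S1 and 0.00035 and 0.0498 in PrL. Without the 2 farthest libraries the r was 0.50 and 0.52. In PrL the 2 lowest Scn2b libraries, female water 5 (294.3 CPM) and male water 3 (265.8 CPM), were among those with olfactory bulb markers. Without the 3 PrL libraries that held these markers, the average for Scn2b was 0.06 (adjusted p = 0.491, edgeR) and that for Scn2a was 0.07 (adjusted p = 0.552).

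Whether the fentanyl effect differed between the 5 regions was tested over all 98 libraries. Of the 7 members 0 passed, against 18.9% of all genes. Scn2b came nearest, with F = 3.26 and adjusted p = 0.0698 by edgeR's quasi-likelihood test, and its adjusted p ranged from 0.0460 with no filter on low counts to 0.428 without the replicates numbered 4. The differences between regions for Scn2b were also fitted in fentanyl libraries. VTA was above S1 by 0.26 (SE 0.08) in water libraries and at -0.12 (SE 0.07, adjusted p = 0.118, edgeR) relative to S1 in fentanyl libraries. Against PrL, VTA stood at 0.03 (SE 0.08) in water, at -0.11 (adjusted p = 0.156, edgeR) in water without the libraries that stood apart, a setting chosen after seeing the data, and at -0.34 (SE 0.07, adjusted p = 2.45e-05, edgeR) in fentanyl libraries. Of the 58 differences between regions that passed in water libraries, 55 also passed in fentanyl libraries.

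Females and males were compared in water libraries. In NAc, 0 of 7 members passed, against 0.0513% of all genes, and 3 had an unadjusted p under 0.05, against 10.7% of all genes. These were Scn1a at -0.42 (male minus female, adjusted p = 0.286, edgeR; -0.45 and 0.042 by limma-voom, which called 3.09% of all genes), Scn8a at -0.28 (0.344) and Scn2a at -0.21 (0.443). In the other 4 regions 0 of 7 members passed by edgeR, DESeq2 or limma-voom and 0 had an unadjusted p under 0.05. By edgeR, all genes passed in 0.0504% of cases in VTA, 0.0898% in VBT, 0.0557% in S1 and 0.0472% in PrL. The shares were 0.192%, 0.206%, 0.0608% and 0.0577% by DESeq2 and 14.1%, 0.0846%, 0.0709% and 0.0524% by limma-voom. By edgeR, 10.8%, 7.82%, 3.98% and 3.4% had an unadjusted p under 0.05.

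The correlations of members between the libraries of a region were tested in each region, and the regions' correlations were not tested against each other. Of 105 pairs of members tested within the 5 regions, the number with both coefficients past an adjusted p of 0.05 by permutation was highest in VTA (12), with 8 each in VBT and NAc, 6 in S1 and 3 in PrL, of 21 pairs in each. The weakest of these pairs had an absolute r of 0.53 and an absolute rho of 0.53. Of all pairs of genes with a mean over 5 CPM in the region, 23.5% in VTA, 12.3% in VBT, 11.3% in NAc, 10.6% in S1 and 7.03% in PrL had both coefficients at least that large. By this cut 13 of 21 member pairs did in VTA, 8 in VBT, 8 in NAc, 6 in S1 and 3 in PrL. The number of member pairs had the same order, with VBT and NAc equal. Scn1a and Scn8a rose and fell together in VBT (r = 0.96, rho = 0.87, n = 20), VTA (0.90 and 0.77, n = 19), S1 (0.89 and 0.83, n = 19) and NAc (0.76 and 0.68, n = 20). Without the 2 libraries farthest from the median of Scn1a, the r was 0.92, 0.78, 0.85 and 0.56. The permutation p of r was 1e-05 in VBT, VTA and S1 and 0.00017 in NAc (adjusted 0.00015 and 0.000939), and that of rho lay between 1e-05 and 0.00165 (adjusted 0.00042 to 0.00787). In PrL the r was 0.55 and the rho 0.41 (permutation p = 0.0157 and 0.0724, adjusted 0.0279 and 0.141, n = 20), and without the 2 farthest libraries the r was -0.04, so the relation there rests on those libraries.

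VTA had the most such pairs. Scn8a and Scn4b were high in libraries where Scn3a and Scn3b were low. Scn1a had an r of -0.77 with Scn3a, and its rho of -0.53 did not pass (adjusted p = 0.0593 by permutation, n = 19). Over 19 libraries the r was 0.94 for Scn8a with Scn4b (rho 0.84) and 0.94 for Scn3a with Scn3b (rho 0.93), and -0.92 for Scn3a with Scn4b (rho -0.92). All of these had a permutation p of 1e-05 to 3e-05 and an adjusted p of at most 0.000525, and without the 2 farthest libraries the r was 0.90, 0.93 and -0.86. In water libraries alone the same r were 0.91, 0.91 and -0.95, and in fentanyl libraries 0.97, 0.95 and -0.91.

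Male fentanyl 4, female water 1 and female water 5, at the end of this pattern, had low VTA marker levels or high levels of the 6 parvalbumin interneuron markers. Of these, Lhx6 was near absent in VTA (mean 0.809 CPM) and Pvalb was low (44.4 CPM), so that Gad1, Kcnc1, Syt2 and Kcnc2, which other neurons also express, made up most of the sum (means of 341.3, 270.8, 251.9 and 103.8 CPM, n = 19). In sum these markers ran from 688.2 to 1769 CPM in males after fentanyl (4 of 6 with the higher mean there) and from 794.0 to 1318 after water, and from 765.5 to 988.4 and from 769.6 to 1406 in females (0 of 6). Male fentanyl 4 held Scn4b at 389.2, Scn1a at 519.9, Scn8a at 416.8 and Scn3b at 74.3 CPM, with 334.8 CPM of VTA markers and 1769 CPM of parvalbumin interneuron markers. Female water 1 held 202.9, 414.1, 343.0 and 96.4 CPM of the same 4 members, with marker sums of 478.1 and 1406. Female water 5 held 203.0, 328.4, 296.4 and 117.2 CPM, with marker sums of 1295 and 1383, so its VTA markers were not low. Female fentanyl 3 also had low Scn3b (88.7 CPM), and no female fentanyl library held over 988.4 CPM of the parvalbumin interneuron markers. Over the 19 libraries, Scn1a had an r of -0.81 and a rho of -0.61 with the VTA score (permutation p = 9e-05 and 0.00746, adjusted 0.000642 and 0.0290, n = 19). The part of the punch in the correlations between members was not tested.

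**Figure D5:**
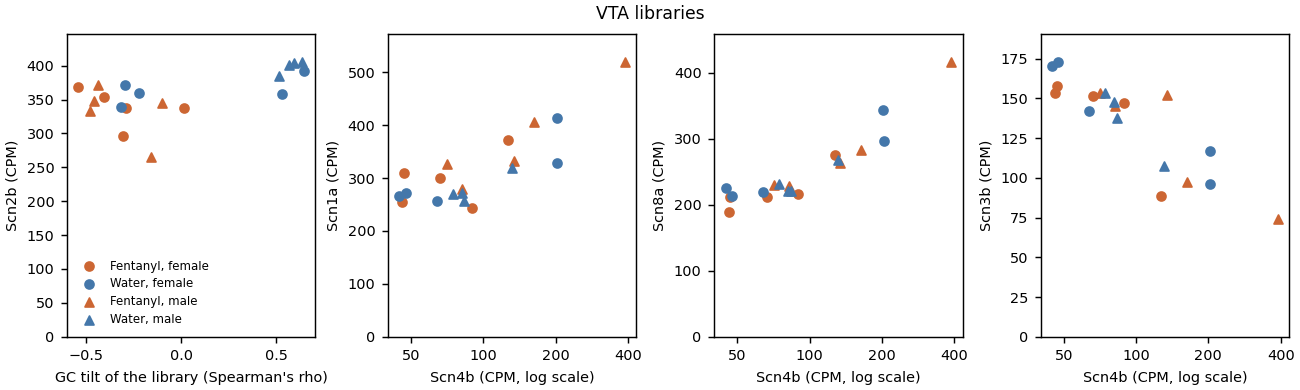
The 19 VTA libraries kept, by sex and treatment: Scn2b (CPM) against the GC tilt of the library, the rank correlation across genes of its deviation from the VTA mean with exon GC content (left panel), and Scn1a, Scn8a and Scn3b (CPM) against Scn4b (CPM, log scale). Male water libraries have a GC tilt of 0.51 to 0.64 and hold 384.7 to 405.9 CPM of Scn2b, and the library with the most Scn4b (389.2 CPM) has the most Scn1a and Scn8a and the least Scn3b.

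In VBT the libraries at the edge had the lowest sums of VBT markers. Male fentanyl 4, male fentanyl 5 and male water 3 had the highest Scn3b (53.0, 36.2 and 30.9 CPM) and, with female water 2, the lowest Scn1a (379.0, 315.7 and 352.1 CPM, and 388.9 CPM in female water 2). Their VBT marker sums were 2084, 1783, 1447 and 2285 CPM, and those of all other VBT libraries were 3069 CPM or more. Scn2b followed the VBT score with r = 0.92 and rho = 0.87 (permutation p = 1e-05 and adjusted p = 0.000175 for both, n = 20; r = 0.84 without the 2 farthest libraries). Scn1a (r = 0.84, rho = 0.62) and Scn8a (0.82 and 0.63) also rose with it, and Scn3a fell with it (-0.72 and -0.63), with permutation p between 0.00011 and 0.00439 and adjusted p between 0.000642 and 0.0237 for these 3 (n = 20). Scn3b had an r of -0.58 with the VBT score (adjusted p = 0.0178 by permutation, n = 20). Its rho of -0.40 did not pass (adjusted p = 0.163).

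Genes that act with the channels were read from 3 lists: 8 other sodium channel genes, 9 channel regulators and 12 genes of the axon initial segment and the node of Ranvier. In VTA males 3 of 9 regulators rose, and 2 of 12 axon initial segment and node genes rose and 2 fell, while 0 of 6 tested other channel genes passed, where 22.0% of all genes did. Fgf12, an intracellular factor that binds the alpha subunit's tail, rose by 0.54 (SE 0.12, adjusted p = 0.00556, edgeR). Sptbn4, the spectrin that anchors the initial segment and node, fell by 0.57 (SE 0.11, adjusted p = 0.00302, edgeR), and Trim46, a microtubule organizer of the initial segment, fell by 0.42 (SE 0.10, adjusted p = 0.00925). With offsets for GC content, 0 of these list genes passed in males or on average, and the number of genes that passed went from 4355 to 835 of 19822 in males and from 4580 to 960 on average. Fgf12 then stood at 0.37 (adjusted p = 0.0503, edgeR), Sptbn4 at -0.08 (adjusted p = 0.644) and Trim46 at -0.07 (adjusted p = 0.658) in males. The list medians in VTA males were 0.21 for the regulators, -0.02 for the initial segment and node genes and -0.09 for the other channel genes.

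On average over the sexes in VTA, 3 regulators rose and 1 fell, 1 initial segment and node gene rose and 3 fell, and 1 other channel gene rose (the leak channel gene Nalcn, by 0.18, adjusted p = 0.0358, edgeR), where 23.1% of all genes passed. Calm2 rose by 0.18 and Fgf12 by 0.30, and Sptbn4 fell by 0.43 and Cntnap1, a paranodal adhesion gene, by 0.20 (adjusted p = 0.00910, 0.0140, 0.00139 and 0.00763, edgeR). With offsets for GC content, Calm2 stood at 0.05, Fgf12 at 0.19, Sptbn4 at -0.08, Cntnap1 at -0.03 and Nalcn at 0.07 on average. Their adjusted p then lay between 0.149 and 0.716 (edgeR). Elsewhere, Bace1, the protease that cleaves beta subunits, rose by 0.18 in PrL on average (adjusted p = 0.0435, edgeR). There 0.697% of all genes passed. Once the fit in PrL allowed for reads outside exons, 0.0% of all genes passed on average, so the Bace1 call was lost. Calm2 rose by 0.37 in NAc males (adjusted p = 0.0390, edgeR), where 0.662% of all genes passed. Outside VTA, no other list gene passed for fentanyl, and in VTA none did in females or for the difference between the sexes. Between regions, where 61.7% of all gene differences passed, 94 of 120 differences of initial segment and node genes passed, 74 of 90 of the regulators and 57 of 70 of the other channel genes.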

How the data were processed

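Counts of reads per Ensembl gene were deposited by the authors as 1 file per library, made with HTSeq on GRCm38 per the submitters' processing notes. The aligner and the annotation release are not given in the sources used here. Per the labels' protocols, SMART-Seq v4 libraries were made from 10 ng of Trizol- and column-extracted RNA. The 5 summary lines of each file were left out of library sizes. Depth was 23032078 to 52069639 counts per kept library (median 36024982), and reads outside exons made up 9.48% to 17.0% of reads. The reads carry no molecular identifiers and may repeat a molecule.

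The members and the lists of related genes and markers were chosen with earlier results of these data known. Symbols, positions, exon lengths and GC contents came from GENCODE M21, which holds 55154 of the 55335 identifiers. CPM is the count divided by the library's gene total. A marker score averages log2(CPM + 1) over the genes of a list.

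Each region was fitted alone with edgeR 4.0.16 in R 4.3.3 (TMM normalization, filterByExpr on its 4 groups, robust quasi-likelihood F-test), with p-values adjusted by Benjamini-Hochberg over all genes of the region. Differences between regions used water libraries with sex as a covariate, adjusted over all genes and 10 pairs. Region by treatment was 1 F-test over 98 libraries. An adjusted p under 0.05 is called passing. VTA male water 3, with fewer than 10000 genes detected, was left out. Correlations used log2 of CPM plus 1 and two-sided permutation tests (scipy 1.17.1, 100000 resamples). All 7 members were named whatever their values, with at most 2 related genes that rose and 2 that fell per comparison by smallest p, and for each member the 2 protein-coding genes most like it. Some related genes that this rule names are not reported here.

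Alternatives were DESeq2 size factors, the DESeq2 1.42.0 Wald test, limma 3.58.1 voom, a block for the replicate number, other count filters (none, or a mean of 50 counts), offsets for exon length or GC content, marker scores or the percent of reads outside exons as covariates, 1 sex alone, the sparse library kept, and each library left out. The score of the region's own markers, the fits between regions without libraries that stand apart, and 2 further settings of the region-by-treatment test were added after seeing the data. The fits were tested on simulated counts.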

Additional observations from a re-analysis of the deposited data

Results flagged for a closer look

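Within the groups of 4 or 5 libraries, 140 sets of member values were searched for a single library far from the rest, and 10 were found where chance gives about 7. In VTA these were Scn3b in female fentanyl 3 (88.742 CPM, the others 147.2 to 157.75), Scn4b in male fentanyl 4 (389.19, the others 70.734 to 162.8) and Scn4b in male water 2 (131.19, the others 74.568 to 83.444). In VBT it was Scn2b in female fentanyl 1 (499.37, the others 444.33 to 450.18), the library with Y-linked reads. In S1 it was Scn3b in male water 3 (47.565, the others 79.858 to 84.901).

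In PrL, Scn4b stood high in female water 5 (31.549 CPM, the others 17.208 to 21.011), which also held olfactory bulb markers, and in male water 5 (87.827, the others 16.362 to 30.536), and Scn1a stood low in male fentanyl 3 (107.31, the others 126.39 to 131.16). In NAc, Scn2b stood high in female water 3 (454.89, the others 403.59 to 414.77) and Scn2a low in male water 5 (364.17, the others 407.63 to 423.87).

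The library left out of all comparisons, VTA male water 3, held Scn8a at 577.15 CPM, where the other VTA water libraries held 213.2 to 342.97, and Scn2b at 418.21 CPM, where they held 338.52 to 405.91. It held Scn3a at 0.0605 CPM, while the lowest of the others was 87.4 CPM.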

How the results depend on the processing

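The fall of Scn2b in VTA depended on the processing. In males, where 1 member was called, 0 were called with no filter on low counts, with the replicate block, with offsets for GC content, with the VTA marker score as a covariate (added after seeing the data) and with the sparse library kept, and 2 (Scn2b and Scn1a) by DESeq2's Wald test and with the oligodendrocyte score (25.7% and 26% of all genes called). On average over the sexes, 1 became 0 with GC offsets, with the VTA score and with the sparse library kept. The main fit called 22.0% of all genes in males and 23.1% on average. Far fewer genes passed with GC offsets, as given above, and the shares under the other settings that called 0 members are not reported here. Leaving out 1 library at a time gave 0 to 2 called members in males over 19 fits, with Scn2b lost without male fentanyl 3 or 4 or any 1 of male water 1, 2, 4 and 5, and 1 in every fit on average.

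Other counts of 0 became 1 in S1 and in PrL on average with the oligodendrocyte score (Scn2b and Scn2a; 2.56% and 3.27% of all genes called), in NAc on average with limma-voom and with the percent of reads outside exons (Scn4b; 1.13% and 2.02%), and in NAc males against females in water with limma-voom (Scn1a; 3.09%). The region-by-treatment count of 0 became 1 (Scn2b) with no filter (8.02% of all genes called), and, in settings added after seeing the data, with a mean of at least 50 counts (29.5%) and with the libraries that stand apart left out (16.7%). It was 0 to 1 over the 5 fits without 1 replicate number, the 1 being Scn3b (adjusted p = 0.0273, edgeR; 14.1% of all genes called) without replicates numbered 3. In the remaining comparisons of fentanyl with water, and of the sexes, leaving out a library gave 0 called members in every fit.

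Of 70 differences between regions, 58 passed and 52 to 59 did under the alternatives, of which 51 to 58 were among those 58. Leaving out a replicate number gave 52 to 59. Scn2b was 0.26 in water and -0.12 in fentanyl libraries for VTA minus S1, and 0.03 and -0.34 for VTA minus PrL. Where these results changed, the cause was not tested. Shares per kilobase moved by more than their SD in 6 of 35 cases when the longest transcript replaced all exons.

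The replicate numbers were not taken to pair the libraries. Over 48 pairs of same-numbered fentanyl and water libraries, the correlation of deviations from the group means had a median of 0.063 (-0.49 to 0.54), and in 0 of 10 sets of a region and sex were all over 0.1. Between regions, 192 such pairs had a median of 0.058, with 73 over 0.1, and in 1 of 40 sets all were. With the replicate block, Scn2b in VTA males was -0.21 (adjusted p = 0.0595, edgeR), on average -0.17 (0.0291), and 57 differences between regions passed. The lowest count of a member was 415.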

Other observations

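For each member, the protein-coding genes with the most similar levels were found by Pearson r of log2 of CPM plus 1, over 98 libraries and 15801 genes. As the libraries share 5 regions, these r mostly describe the order of the regions, and no p is given. The first and the next were Luzp1 (0.98) and Acsl6 (0.96) for Scn1a, Syt16 (0.97) and Lgi1 (0.96) for Scn2a, Usp11 (0.95) and Ankrd6 (0.94) for Scn3a, and Agtpbp1 (0.93) and Trim37 (0.92) for Scn8a. For the beta members they were Fam110b (0.80) and Creld1 (0.79) for Scn2b, Smarca1 (0.97) and Pgrmc1 (0.97) for Scn3b, and Nexn (0.91) and Pcp4l1 (0.91) for Scn4b.

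After the mean of each of the 20 groups was subtracted, which leaves the variation between libraries of a group, potassium channel genes came first for 2 alpha members. Kcna2, which encodes a delayed rectifier potassium channel of axons, had an r of 0.91 with Scn1a and 0.90 with Scn8a. Scn4b went with Syt2, a synaptotagmin of fast synapses (0.85), and Kcna1, a partner of Kcna2 (0.80). Scn3a and Scn3b shared Smarca1, a chromatin remodeller, as the gene most like them (0.84 and 0.87). For Scn2a these were Bag4 and Nexmif (0.77 for both), and for Scn2b Cap2 (0.75) and Ptprn2 (0.74). The libraries share their preparation, and what else they share was not tested.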
